A study of Mus musculus with 2 samples.

Results

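Chemokines and interleukins are the secreted signals by which cells of a tissue call in and instruct leukocytes, and they were examined here together with their receptors in mouse mammary tumors from animals fed GW9662, an irreversible inhibitor of the nuclear receptor PPARγ, and from animals fed the control diet. A gene belonged to this set when its current symbol, or its symbol in the array annotation, starts with Ccl, Cxcl, Cx3c, Ccr or Cxcr and a number, or with Il and a number. Cx3cl1 and Cx3cr1 were counted in. The alarmin IL-33 with Il18, Il1a, Il1b, Il1rn, Il1r1, Il1rap and Il1rl1 was left out. This gave 106 of the 12393 genes named on the array, read by 146 of its 22690 probe sets, where a probe set is a handful of short DNA probes against 1 stretch of a transcript. Where a gene had several probe sets, the one with the highest mean over the arrays was taken, and 33 of the 106 genes had a mean signal of at least 100 there. Those 33 are described in full, and the 73 others were dimmer and are given by ranges and counts, with signals for those that bear on a described gene.

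Both arrays came from mammary tumors of wild-type female FVB mice. All animals had received 15 mg of the progestin medroxyprogesterone acetate from 5 weeks of age and then 4 doses of 1 mg of the carcinogen DMBA. From the day after the last dose, the GW9662 group ate chow with 0.1% GW9662 and the control group ate the same chow without it. Each array carries mixed RNA of 5 mice, and each diet has 1 array, so that there are no replicates, no test was run, and differences between mice, tumors or arrays cannot be told apart from differences between diets. In such bulk RNA, fewer cells of a type and less RNA per cell cannot be told apart either.

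Epithelial genes were bright on both arrays, as the tissue label says. Krt8, a keratin of luminal cells, had a signal of 9665 on the GW9662 array and 9496 on the control array, and the adhesion molecule Epcam had 7580 and 6757 in the same order. Fat and muscle genes were far lower in GW9662 tumors. All 8 adipocyte markers and all 10 skeletal muscle markers with a mean signal of at least 100 were lower by 2-fold or more, and the summed signal of the named adipocyte markers was 6208 on the GW9662 array and 46376 on the control array. Summed signals of leukocyte markers were closer, though single markers differed in both directions. Of the 7 pan-leukocyte markers, 4 were lower, such as Coro1a (385 and 613), and 3 were higher, such as Lcp1 (1605 and 1303). Of 11 macrophage and monocyte markers with a mean signal of at least 100, 6 were lower, such as Cd163 (137 and 231), and 5 were higher. All 4 dendritic cell markers of that brightness were lower. The 7 pan-leukocyte markers summed to 5297 and 5413, and the 12 named macrophage and monocyte markers to 20023 and 21330, on the GW9662 and control arrays, with only the scavenger receptor Marco near 0 on both (0.9 and 0.8). All 12 named T and NK cell markers had a mean signal below 100, summing to 369 on the GW9662 array and 653.5 on the control array. Their part in the differences given here was not tested.

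Chemokines are small proteins that bind heparan sulfate and draw leukocytes along a gradient through receptors coupled to G proteins. Their class name, CC, CXC or CX3C, gives the spacing of the first cysteines of the mature protein. Interleukins signal through paired receptor chains, many of which are shared between several ligands, and most of those chains act through the JAK and STAT proteins, whereas the IL-17 and IL-18 receptors act through NF-kB. In the mammary gland, the chemokine eotaxin recruits eosinophils during ductal growth, and in tumors chemokines shape the leukocyte infiltrate.

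Most of the 33 genes differed by less than 1.5-fold between the diets, though a smaller share of them than over the array lay that close. On the log2 scale of GW9662 over control, 24 lay within 1.5-fold after signals below 100 had been set to 100, and 8 lay closer to 0 than 0.36, the SD of the log2 ratio among probe sets that read 1 gene (2639 genes). In all, 19 of the 33 were lower on the GW9662 array, against 47.1% of the 8009 genes of the array with a mean signal of at least 100, and 14 had a higher signal, against 52.9%. Only Ccl5 was at least 2-fold lower, that is 1 of 33 against a background of 4.35% of the 8009 genes, and 0 of 33 were at least 2-fold higher, against 0.911%. At 1.5-fold, 6 of 33 were lower against a background of 10.2%, and 3 of 33 were higher against 6.36%. The members thus lay beyond 1.5-fold more often than all genes, on small counts. The study's methods used 3-fold and a signal of 300 or more, taken here on 1 of the arrays. At these thresholds, 0 of 33 were lower, against 2.02%, and 0 were higher, against 0.162%. The study's list of metabolic genes used a lower bar, 2.5-fold with a signal above 300 in either group. Ccl5, with 383 on the control array and 2.50-fold lower, just reached that bar, whose share over all genes was not counted. Few members passed 2-fold, and their share was close to that over the array.

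The median log2 ratio was -0.15 over the 33 genes and 0.03 over the 8009. With a signal minimum of 50 the members' median was -0.37 and with 200 it was 0.07, so that its sign is not settled. The middle range of the log2 ratios was wider among the 33, with quartiles of -0.57 and 0.42, than over the 8009, with quartiles of -0.25 and 0.28. Both quartiles of the 8009 lie closer to 0 than 0.36, the SD between probe sets of a gene, and neither quartile of the 33 does. The 33 genes were also dimmer, with a median signal of 280 against 552. By role, the 16 chemokines split evenly, with 8 lower and 8 higher and a median of 0.02. Of the 3 chemokine receptors, 2 were lower and 1 was higher (median -0.43). Of the 9 interleukin receptor chains, 5 were lower and 4 were higher (median -0.15). Of the 5 interleukins, 4 were lower and 1 was higher (median -0.64, or -0.41 with signals below 100 set to 100). The plot of cumulative shares shows this spread without a long tail on either side.

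**Figure D1:**
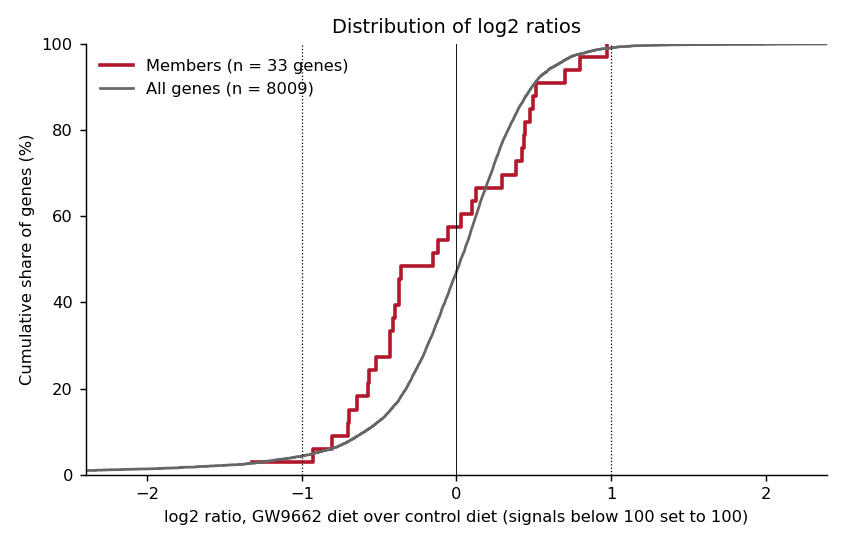
Cumulative share of genes (y axis, percent) at or below each log2 ratio of GW9662 diet over control diet (x axis, signals below 100 set to 100), in red for the 33 described chemokine and interleukin genes and in gray for the 8009 genes with a mean signal of at least 100. The dotted lines mark 2-fold, and 1 of the 33 genes lies beyond them, on the lower side. The x axis is drawn only for log2 ratios between the limits shown, and some of the 8009 genes lie outside them.

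CC chemokines that act on monocytes, eosinophils and T cells differed in both directions. Ccl5 (RANTES), which draws T cells and monocytes, had a signal of 153 on the GW9662 array and 383 on the control array, 2.50-fold lower with a log2 ratio of -1.32, and 2.67% of the 8009 genes had a ratio as low. It was the 1 member past 2-fold, at a single probe set. T and NK cells are among the cells that make Ccl5, and their 12 markers, all with a mean below 100, had lower readings on the GW9662 array, among them the granzyme Gzma (18.6 and 70.5) and the T cell receptor chain Cd3g (56.3 and 110.7). Some of the 12, such as Cd4 (4.6 and 5.1), lay in the range of the olfactory receptor genes, whose transcripts should be missing from a mammary tumor. Those genes summed to 218 on the GW9662 array and 291 on the control array, so that no direction can be read from the dimmest. The part of T and NK cells in the Ccl5 difference was not tested. Ccl11 (eotaxin), the ligand of the eosinophil receptor Ccr3, had 366 and 694.5, 1.90-fold lower. Toward the other side, Ccl8, which in the mouse acts through Ccr8, had 3251 on the GW9662 array and 1994 on the control array, 1.63-fold higher with a log2 ratio of 0.71. The Ccr2 ligand Ccl2 (MCP-1), the main attractant of inflammatory monocytes, had 214 and 157, 1.36-fold higher. Ccl12 (MCP-5), another Ccr2 ligand, had 182 and 136, 1.34-fold higher. The mouse Ccr1 ligand Ccl9 had 740.5 on the GW9662 array and 958.5 on the control array, and its other probe set had 389 and 577, so both were lower. Ccl6, which also acts through Ccr1, had 1194 and 1113 at its brighter probe set and 365 and 468 at the other, so that no direction can be read for it. Ccl6 apart, the 7 described genes of the inflammatory CC list held 3 that were lower and 3 that were higher.

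**Figure D2:**
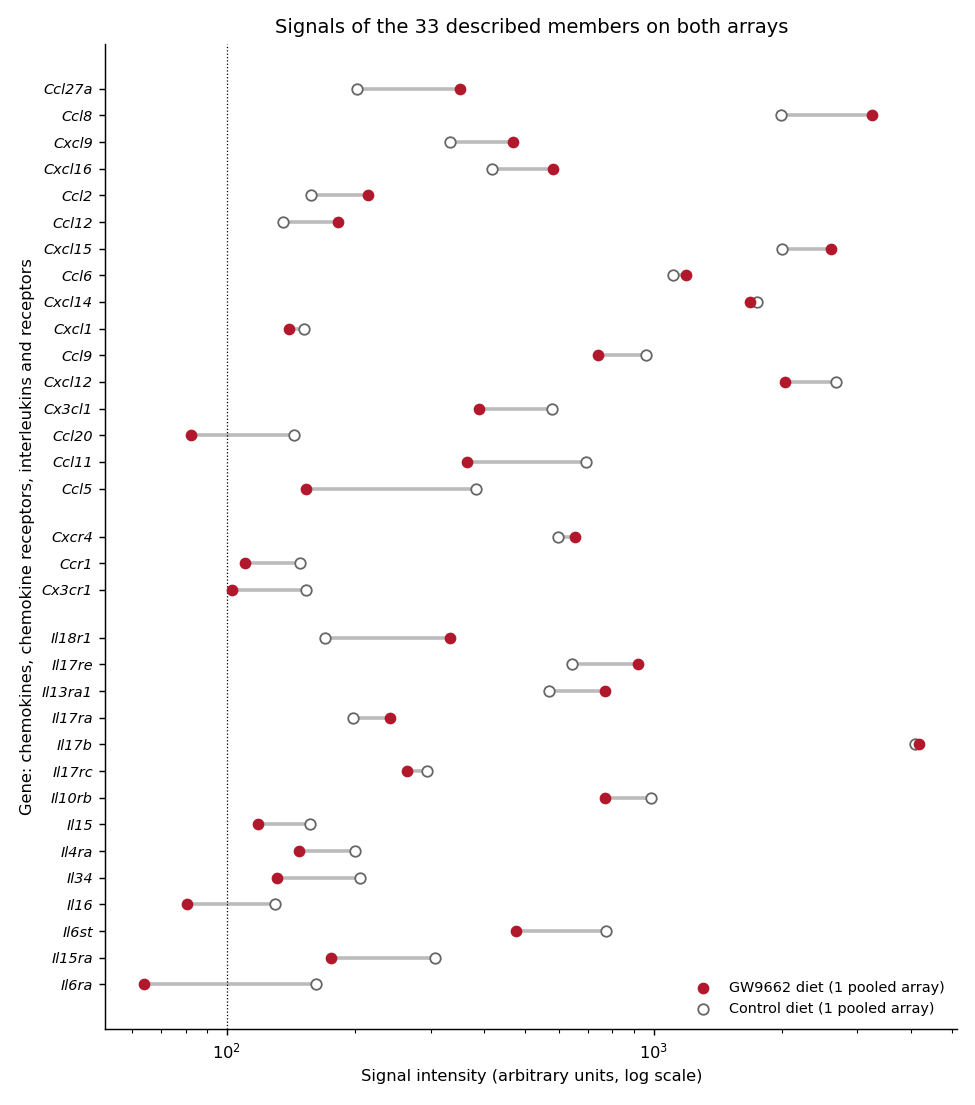
Signal of each of the 33 described genes (x axis, arbitrary units on a log scale) on the GW9662 diet array (filled red) and the control diet array (open gray), grouped from top to bottom as chemokines, chemokine receptors, and interleukins with their receptors, and ordered by log2 ratio within each group. The widest gaps are those of Ccl5 and Il6ra on the lower side and of Il18r1 on the higher side, and the dotted line marks a signal of 100. Signals of different genes come from different probes and are not amounts to be set against each other.

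Many of these CC genes lie side by side on chromosome 11, a property the choice of genes did not use. In the order of the mouse assembly GRCm38.p6, the first group runs Ccl2, Ccl7, Ccl11, Ccl12, Ccl8 and Ccl1, and the next runs Ccl5, Ccl9, Ccl6, Ccl3 and Ccl4. In the first group, the Ccr2 ligands and Ccl8 had higher signals on the GW9662 array, including Ccl7 (MCP-3), which at 80.9 and 52.5 was below 100 on both arrays. Ccl11, which stands between them, was lower. Ccl1, a ligand of Ccr8, was at 5.1 and 11.2, in the olfactory receptor range. In the second group, Ccl5 and Ccl9 were lower and Ccl3 (25.4 and 29.9) and Ccl4 (41.7 and 71.6), the macrophage inflammatory proteins, were below 100. In the first group, neighbours thus differed in both directions, and in the second no described gene with a readable direction was higher.

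**Figure D3:**
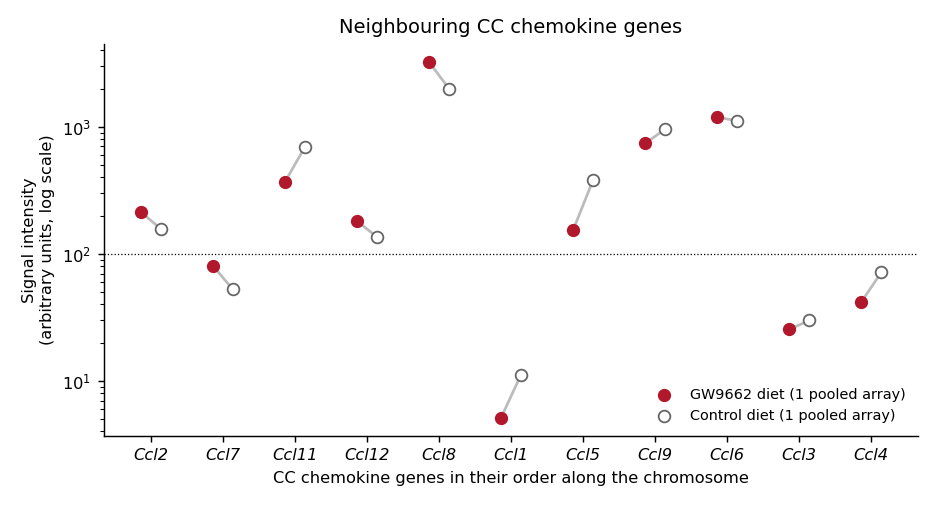
Signal (y axis, arbitrary units on a log scale) of 11 CC chemokine genes in their order along the chromosome (x axis, not to scale), with the GW9662 diet array in filled red and the control diet array in open gray, joined for each gene. Ccl2, Ccl7, Ccl12 and Ccl8 were higher on the GW9662 array, with Ccl11 lower between them, and the dotted line marks a signal of 100.

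The sequences before the starts of Ccl12 and Ccl8 are shown because these neighbours were both higher on the GW9662 array. Each is the 250 bases before the annotated start, from RefSeq on GRCm38.p6, read 5′ to 3′, with the letters of a TATA box (TATAAA, searched on both strands) in capitals.
Ccl12 (GRCm38.p6, chr11:82101595-82101844, + strand): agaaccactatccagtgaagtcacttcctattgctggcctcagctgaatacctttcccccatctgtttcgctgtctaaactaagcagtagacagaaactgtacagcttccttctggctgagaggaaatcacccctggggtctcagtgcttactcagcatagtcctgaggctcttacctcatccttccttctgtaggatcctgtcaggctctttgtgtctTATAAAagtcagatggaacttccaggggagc
Ccl8 (GRCm38.p6, chr11:82114935-82115184, + strand): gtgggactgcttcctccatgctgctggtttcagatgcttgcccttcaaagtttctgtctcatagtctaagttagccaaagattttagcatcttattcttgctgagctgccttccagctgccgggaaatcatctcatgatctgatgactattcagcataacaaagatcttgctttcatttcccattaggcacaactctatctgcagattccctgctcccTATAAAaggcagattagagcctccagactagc

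The box begins 31 bases before the start in Ccl12 and 32 bases before it in Ccl8. A match to TATAAA stood in 7 of the 31 promoters found for 24 of the 33 genes (some genes have several starts) and in 12.4% of all 32851 mouse promoters of the same length. These were promoters of Ccl12, Ccl8, Ccl9, Cx3cl1, Cxcl15, Cxcl9 and Cxcr4. Ccl9 and Cx3cl1 were lower on the GW9662 array, so the box was not shared by members with a common direction. The promoter of Ccl5 was not analysed here. Matches describe letters only and say nothing of a factor's binding.

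Among chemokines with a CC motif that act at skin and mucosa, the directions also differed. Ccl27a, the ligand of the skin homing receptor Ccr10, had 352 on the GW9662 array and 202 on the control array, 1.74-fold higher, and 2.31% of the 8009 genes had a ratio as high. Near-identical copies of this gene lie in the mouse genome, so its probe set may read more than 1 of them. Ccl20, which draws Ccr6-bearing dendritic cells and lymphocytes to epithelium, had 82.2 and 144, at least 1.44-fold lower. The intestinal and thymic chemokine Ccl25 (43.7 and 28.2) and the mucosal chemokine Ccl28 (7.5 and 12.8) were below 100 on both arrays.

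CXC chemokines with an ELR sequence draw neutrophils, most of them through Cxcr2, and they shared no direction. Cxcl15 (lungkine) had 2608 on the GW9662 array and 1999 on the control array, 1.30-fold higher. Cxcl1 (KC) was nearly level at 139.5 and 152. Cxcl2 (17.8 and 26.9) and Cxcl5 (1.2 and 10.3), both attractants of neutrophils, were too dim for a direction, as was Cxcr2 itself. The sequence before the start of Cxcl1 is shown as the member with 2 matches to a motif of NF-kB, the factor that drives many chemokine genes. Capitals mark GGGNNTTTC on either strand, and the bases are again the 250 before the start.
Cxcl1 (GRCm38.p6, chr5:90890995-90891244, + strand): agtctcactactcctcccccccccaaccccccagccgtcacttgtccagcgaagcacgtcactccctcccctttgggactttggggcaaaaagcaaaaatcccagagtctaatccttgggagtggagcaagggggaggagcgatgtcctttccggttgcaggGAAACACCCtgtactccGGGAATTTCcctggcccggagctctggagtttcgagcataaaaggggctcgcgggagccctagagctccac

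The matches begin 88 and 71 bases before the start. Over the members, 7 of 31 promoters held GGGNNTTTC, those of Ccl20, Ccl9, Cxcl1, Cxcl9, Cxcr4, Il16 and Il17rc, against 3.72% of all promoters. These genes lay on both sides of 0, with log2 ratios between -0.52 for Ccl20 and 0.49 for Cxcl9 when signals below 100 were set to 100. A direct repeat of AGGTCA with 1 base between the copies is a consensus of sites bound by PPARs with RXR. It was found on either strand in 0 of the 31 member promoters and in 0.0335% of all promoters. With so rare a match, 31 promoters are too few to tell whether members hold such sites. Genes of the NF-kB pathway itself were close to level, with 6 lower and 6 higher among the 12 described and a median log2 ratio of 0.02. Nfkbia, the inhibitor that NF-kB induces, had 6913 on the GW9662 array and 7742 on the control array, and the subunit Rela had 1108 and 987.

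Of the CXC chemokines induced by interferon, which draw T and NK cells through Cxcr3, Cxcl9 had 469 on the GW9662 array and 333 on the control array, 1.41-fold higher. Cxcl10 (85.5 and 73.7) and Cxcl11 (40.8 and 41.2) were below 100 on both arrays. Their receptor Cxcr3 was also below 100 (67.4 and 94.2). Cxcl9 and Ccl5, both tied to T cell infiltrates, thus differed in opposite directions.

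The CXC chemokine Cxcl12 (SDF-1), made by stromal cells, was lower and its receptors differed from one another. Cxcl12 had 2029 on the GW9662 array and 2674 on the control array, 1.32-fold lower, and was lower at its other probe set as well (850.0 and 996). Cxcr4, its signaling receptor on leukocytes and tumor cells, had 653 and 597, close to level. Of 10 fibroblast markers, 7 were lower and 3 higher, with summed signals of 25696 on the GW9662 array and 33113 on the control array. The widest gap was that of Dcn (2925 and 7005), whereas Col1a1 was higher (1120 and 678). The part of fibroblasts in the Cxcl12 difference was not tested. Ackr3, the receptor once called Cxcr7 that takes up Cxcl12 without G protein signaling, carries none of the symbols of the set in either annotation and was not counted in it. Its signal was 237 on the GW9662 array and 938 on the control array, 3.96-fold lower, and 1.39% of the 8009 genes had a ratio as low. If RefSeq synonyms also named members, 40 genes would be described, 2 of them at least 2-fold lower, Ccl5 and Ackr3, with a median of -0.18. Ackr3 is also expressed by endothelium, and all 9 endothelial markers with a mean signal of at least 100 were lower, 3 of them at least 2-fold, with summed signals of the 10 named markers of 3503 on the GW9662 array and 5931 on the control array. The part of endothelium and fat in this difference was not tested. Ackr1, a chemokine sink of venules and red cells, had 73.0 and 214, at least 2.14-fold lower.

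The other chemokines of epithelium and stroma differed by less than 1.5-fold. Cxcl14, an epithelial chemokine, had 1687 on the GW9662 array and 1751 on the control array, and it was near level at its other probe set too (532 and 620). Cxcl16, a membrane-bound chemokine and scavenger receptor, was higher at its brighter probe set (582 and 418) and at the other (497 and 388). Its receptor Cxcr6 was below 100 (18.8 and 46.1). Cx3cl1 (fractalkine), which is membrane-bound on endothelium and epithelium, had 390 on the GW9662 array and 577 on the control array, 1.48-fold lower. Its receptor Cx3cr1, found on monocytes and macrophages, was 1.49-fold lower (103 and 153), so that ligand and receptor were lower to a like extent. Ccr1, the receptor of Ccl5, Ccl6 and Ccl9, had 110.1 and 148. Macrophage markers were near level beside these receptors, with 6 lower and 5 higher of 11 and a median of -0.07.

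Both described chains of the IL-6 receptor were lower on the GW9662 array at their brightest probe sets. Il6st (gp130), the signaling chain shared by IL-6, IL-11, LIF and oncostatin M, had 477 on the GW9662 array and 774 on the control array, 1.62-fold lower. Il6ra, the chain that binds IL-6, had 64.0 and 162, at least 1.62-fold lower. The dimmer probe set of Il6ra was not lower (34.5 and 28.0) and was below 100 on both arrays. Of the partner chains, Lifr, the LIF receptor, had 744 and 1146, 1.54-fold lower, and Osmr, the oncostatin M receptor, had 716 and 904, a difference within the SD between probe sets. Cntfr, the chain that binds ciliary neurotrophic factor, was below a mean of 100 and higher on the GW9662 array (111.5 and 51.0). The ligands Il6 (16.8 and 20.8) and Il11 (20.3 and 11.8) were no brighter than the brightest olfactory receptor gene. Jak1, a kinase on gp130 and on the gamma chain receptors, had 697.5 and 1346, 1.93-fold lower. Of the other JAK kinases, Jak2 (1119 and 847) and Tyk2 (322 and 254) were higher on the GW9662 array. Jak3 was below 100 on both arrays (50.6 and 85.8). Stat3, a factor that Jak1 activates, was level (1391 and 1356), and Socs3, an inhibitor that Stat3 induces, had 679 and 725. The JAK-STAT list as a whole was near level, with 7 lower and 6 higher of 13, a median of -0.09 and 0 past 2-fold in either direction. Cish, an inhibitor induced by Stat5, had 344 and 582, 1.69-fold lower. Socs2, another inhibitor on that list, was near level (1127 and 1199).

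Within the gamma chain family, IL-15 and its receptor were lower. Il15ra, which presents IL-15 to T and NK cells, had 176 on the GW9662 array and 307 on the control array, 1.75-fold lower. It was lower at its dimmer probe set also (58.7 and 101.5). Il15, which sustains NK and memory T cells, had 118 and 157, 1.33-fold lower. The chains that receive IL-4 and IL-13 shared no clear direction. Il4ra, the chain common to both, had 148 and 199.5, 1.35-fold lower, and Il13ra1, its partner on epithelium and macrophages, had 769.5 and 568, 1.35-fold higher at its brightest probe set. The 4 bright probe sets of Il13ra1 disagreed. They gave log2 ratios of 0.44, 0.95 (452 and 234), 0.70 (258 and 159) and -0.26 (318 and 380), a range of more than 1, so that no direction can be read for it. Il4 (7.3 and 5.6) and Il13 were not above the olfactory receptor range. Both T cell growth factor receptors Il2ra and Il2rb were likewise within it.

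**Figure D4:**
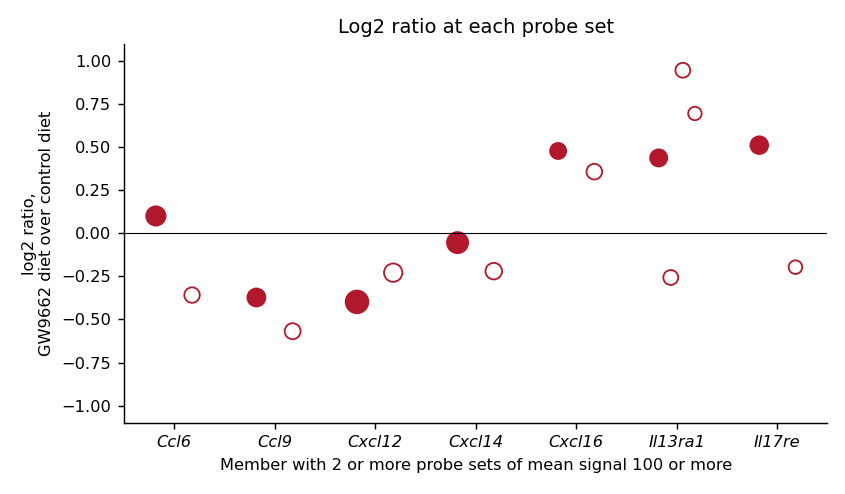
Log2 ratio of GW9662 diet over control diet (y axis) at each probe set with a mean signal of at least 100, for the 7 described genes with 2 or more such probe sets (x axis). The filled point is the brightest probe set, at which the gene was read, and point area grows with signal. Ccl6, Il13ra1 and Il17re have probe sets on both sides of 0, and Ccl9, Cxcl12, Cxcl14 and Cxcl16 on 1 side.

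The IL-17 family held the member whose signal differed least between the diets. Il17b, a ligand that is expressed by epithelium, had 4181 on the GW9662 array and 4091 on the control array, a log2 ratio of 0.03. Its receptor Il17rb was below 100 on both (33.5 and 47.2). Il17re, the receptor for epithelial IL-17C, had 918 and 643.5, 1.43-fold higher, but 208 and 238 at its dimmer probe set. Il17ra, the chain shared by most IL-17 receptors, had 241 and 197, and Il17rc, its partner for IL-17A and IL-17F, had 265 and 295. Il17re and Il17rc lie close together on chromosome 6, which also carries Il17ra, and the differences of all 3 were under 1.5-fold.

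Il18r1, the chain that binds IL-18, had the largest ratio on the higher side, at a single probe set. Its signal was 333 on the GW9662 array and 169.8 on the control array, 1.96-fold higher with a log2 ratio of 0.97, and 1.04% of the 8009 genes had a ratio as high. Its partner chain and the IL-18 trap were dim. Il18rap, the accessory chain that signaling requires and the next gene on chromosome 1, was within the olfactory receptor range (7.9 and 11.4), and Il18bp, the soluble trap of IL-18, was below 100 (41.3 and 69.0). Myd88, the adaptor that carries the signal on inside the cell, was bright and level (615.5 and 617). The decoy receptor Il1r2 from the same run of genes had 26.3 and 72.0. The sequence before a start of Il18r1 is shown because the gene was the highest and held 2 matches to the STAT motif TTCNNNGAA, which reads alike on both strands and is in capitals. This is 1 of its 3 annotated starts, the one that held them.
Il18r1 (GRCm38.p6, chr1:40465756-40466005, + strand): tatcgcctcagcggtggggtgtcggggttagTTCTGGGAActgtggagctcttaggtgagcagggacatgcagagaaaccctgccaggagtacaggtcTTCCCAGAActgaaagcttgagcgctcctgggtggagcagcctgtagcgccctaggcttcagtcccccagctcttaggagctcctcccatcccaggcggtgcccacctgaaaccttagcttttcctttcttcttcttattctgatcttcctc

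Those matches begin 219 and 152 bases before the start. Of the 31 member promoters, 2 held the motif, those of Il18r1 and Cxcl14, against 7.02% of all promoters. Cxcl14 was near level, so the motif was not shared by members with a common direction.

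Among the remaining interleukins and receptors, Il34, a ligand of the macrophage receptor Csf1r, had 131 on the GW9662 array and 205 on the control array, 1.56-fold lower. Csf1, the other ligand of that receptor, had 229 and 359.5, 1.57-fold lower, while Csf1r itself was nearly level (3007 and 3155). Il16, whose product draws CD4-bearing T cells, had 80.5 and 130, at least 1.30-fold lower. Il10rb, the chain shared by the receptors of IL-10, IL-22 and the type III interferons, had 771 and 988, 1.28-fold lower. The interferon gamma receptor chains, which stand outside the set, were lower too, Ifngr2 at 247 and 448 and Ifngr1 at 663 and 1096. On a list of related receptors and cytokines outside the set, 11 of 13 described genes were lower (median -0.34), against 47.1% of all genes. The list was chosen with earlier results of these data known, so this is no independent comparison. Of the lower genes, Ccrl2, Csf1r, Pf4, Tnfrsf1b and Osmr lay within 0.36, the SD between probe sets of a gene.

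**Figure D5:**
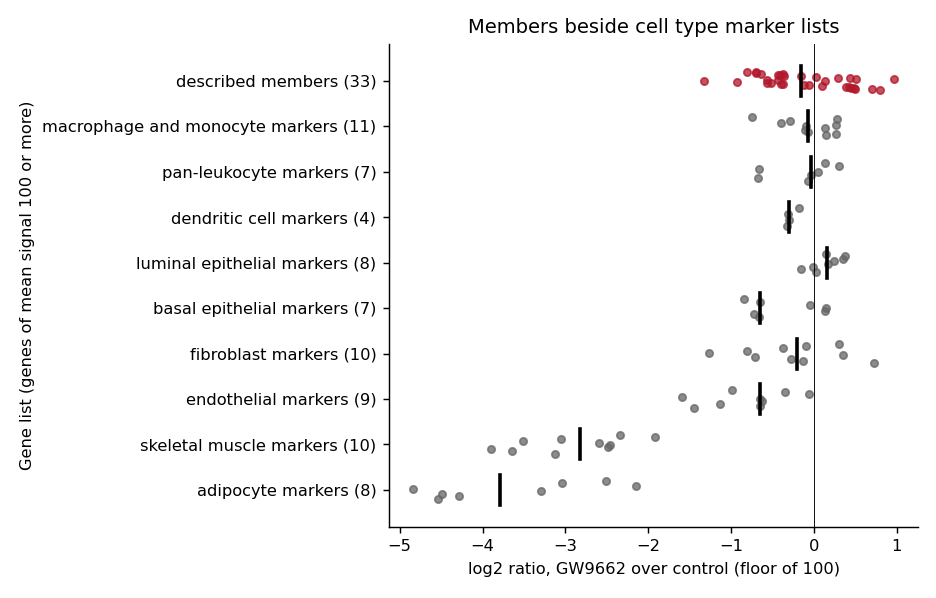
Log2 ratio of GW9662 diet over control diet (x axis, signals below 100 set to 100) for the 33 described genes in red and for genes of cell type marker lists in gray, with the number of genes in parentheses and the median as a black bar. The chemokine and interleukin genes and the macrophage and pan-leukocyte markers lie around 0, and the adipocyte and skeletal muscle markers lie below -1.

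The 73 members with a mean signal below 100 had median signals of 16.8 on the GW9662 array and 17.2 on the control array. On both arrays, 42 of them were no brighter than 25.8, the highest signal of the 31 olfactory receptor genes, whose medians were 5.6 and 9.6. The other 31 were above that on at least 1 array. A signal of at least 100 was reached by 3, all on the control array alone. Ccr2, the receptor of inflammatory monocytes, had 38.7 on the GW9662 array and 128.5 on the control array, at least 1.28-fold lower. The eosinophil chemokine Ccl24 had 59.0 and 135.5, and the mucosal chemokine Cxcl17 had 56.6 and 135. None of the 5 genes of the IL-12 family and none of the 4 of the IL-3 and IL-5 family reached a mean of 100. Low signal on an array does not show that a transcript was absent.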

How the data were processed

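Tumor RNA of 2 groups was read on 1 Affymetrix mouse expression array each. The authors scanned the arrays, generated the raw data with Affymetrix GeneChip Operating Software and deposited 1 linear signal intensity per probe set. The rule for combining and scaling the probes is not given in the sources used here. Signals ran from 0 to 14841, and trimming 2% at each end left a mean of 500.2 on each array. They were used without further scaling. For log2 ratios, signals of 0 were read as 0.1. Gene names came from the annotation of the array platform, updated by gene identifier to RefSeq symbols of GRCm38.p6. A single gene was attached to 20380 of 22690 probe sets, and only these were used, leaving out 691 that list several genes, 64 controls and 1555 others.

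Folds used a floor of 100. Where the dimmer signal was below it, the fold is a lower bound against 100, and no fold was given when both were below. With 1 array per diet no test was possible, and having 2 arrays in all limits how precise any value can be. Named were all members past 2-fold, the 12 brightest, the brightest and the extremes of each role list, members whose probe sets disagreed, and the brightest and 2-fold genes of pathway lists. Ligands and receptors paired with a member, neighbouring genes, dim members and further genes of the pathway and marker lists were named in addition, after their values were seen. The members, lists and thresholds were chosen with earlier results of these data known, and the promoter motifs after their matches had been seen. The counting rule was tested on simulated data with less noise than the SD between probe sets of a gene. Recovery was checked there only for genes brighter than Ccl5 and Il18r1, so it does not speak for such dimmer members. Other settings covered scaling, the floor, the signal minimum, the fold, the choice of probe set and the naming of members. The software was matplotlib 3.10.9, pandas 2.3.3 and numpy 2.4.6 under Python 3.11.15.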

Additional observations from a re-analysis of the deposited data

How the results depend on the processing

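The count of genes at least 2-fold lower was 1. It was 2 with a floor of 50, which adds Il6ra, 0 with a floor of 200, 6 at 1.5-fold, 0 at 3-fold with or without a signal of 300 on either array, and 2 where RefSeq synonyms also named members, which adds Ackr3. The count of genes at least 2-fold higher was 0. It was 1 with quantile normalization, where Il18r1 had a log2 ratio of 1.08, and 3 at 1.5-fold. Centring, quantile normalization, the median over probe sets and other signal minimums left the count of lower genes at 1. The median log2 ratio of -0.15 ranged from -0.37 with a signal minimum of 50 (49 genes) to 0.07 with a minimum of 200 (22 genes), so its sign is not settled. The median over all genes was 0.02 and 0.04 at these minimums. Of 220 values of single genes under other settings, 209 moved by less than 0.36, the SD between probe sets of a gene, and 11 by more. Those 11 belonged to 10 genes and came from the floor of 50 or 200. The sign turned for Cxcl1 (0.01) and Il17b (-0.02) with quantile normalization and for Ccl6 (-0.13) with the median over probe sets. No paired analysis was possible because each diet has 1 array.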

Other observations

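Mast cells and neutrophils both make and answer to these signals. All named mast cell markers but Kit had lower readings on the GW9662 array, whereas the neutrophil markers shared no direction. Cpa3, the carboxypeptidase of mast cells, had a signal of 50.8 on the GW9662 array and 232 on the control array, at least 2.32-fold lower, and the mast cell chymase Cma1 had 38.8 and 111. The mast cell markers Mcpt4 (16.6 and 42.3), Tpsb2 (18.4 and 47.3) and Fcer1a (7.5 and 14.8) were far below 100 on both arrays. The stem cell factor receptor Kit, which mammary epithelium also expresses, had 1375 and 1185. Of the neutrophil markers, the calgranulin genes S100a8 (234 and 301) and S100a9 (174 and 162) differed little. Ltf, lactoferrin, was 6.43-fold lower (201 and 1291) and is also a milk protein.

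A further 6 probe sets name several genes, at least 1 of them a chemokine or interleukin gene, and were not assigned to any. The largest signals among them were 434 on the GW9662 array and 216 on the control array, 2.01-fold higher. That probe set is past 2-fold on the higher side and is not in the counts of members. Another had 387 and 254.0, 1.52-fold higher. Yet another had 31.2 and 184, at least 1.84-fold lower with a floor of 100.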
